A study of Mus musculus with 8 samples.

Results

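Replication initiation sites (ISs) of Rif1-null CH12 cells that carried a control hairpin against LacZ (the label Rif1KO_shLacZ) were compared with those of WT CH12 cells by short nascent strand sequencing (SNS-seq). The members were chosen by the labels, and 4 of the 8 libraries of the series belong here, 2 of WT and 2 of Rif1KO_shLacZ. CH12 is a mouse B cell lymphoma line, and the labels give stimulation with IL4, CD40 and TGF beta for both groups. Per the study's methods, the hairpin came from a lentivirus and infected cells were selected with puromycin, whereas WT cells carry no hairpin by their label. Loss of RIF1, infection and selection therefore cannot be told apart in this comparison. The study describes clonal Rif1-/- derivatives of CH12, and which of them gave these libraries is not given in the sources used here. SNS-seq measures DNA, so the targeted gene could not be checked through its transcript.

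Each condition has a list of ISs, and the merged tables give 1 read density per condition in log2 RPM (reads per 1000000 reads inside the ISs of that table), with both replicates pooled by the authors. No value has a replicate error and no test between the conditions was possible. The WT and Rif1KO_shLacZ columns stand in separate tables that were scaled separately, so each column was centred on its autosomal median (log2 RPM 4.45 for WT and 2.75 for Rif1KO_shLacZ). The ISs of both tables that overlapped 1 to 1 on the autosomes gave 31462 sites, which are 80.8% of the 38954 autosomal ISs of the WT table and 24.7% of the 127312 of the Rif1KO_shLacZ table. Inside the ISs of their tables lay 3350255 WT reads and 21071351 Rif1KO_shLacZ reads, numbers that combine the depth of the libraries with the number of ISs. Library totals were not used here.

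In mammalian cells, replication starts at sites licensed by the origin recognition complex and the MCM helicase, and only some licensed sites fire in a given S phase. RIF1 binds chromatin and protein phosphatase 1 and is known for its control of when domains replicate. In SNS-seq, short new leading strands are protected from lambda exonuclease by their RNA primer, and read density at an IS stands for the use of that site in the cell population. Many mammalian ISs lie beside G-quadruplex (G4) motifs, here 4 runs of at least 3 G separated by 1 to 7 bases, or the same with C when the G-rich strand is the - strand.

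The following 300 bp stretches of the mm9 + strand show the sequence that the positional results turn on. The first is an IS called in both conditions, chosen after the values were seen for lying near the median geometry described below. The others are sites with extreme density differences. Capitals mark matches to the G4 motif.

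Chromosome 5 IS, G-rich strand +, chr5:135756501-135756800: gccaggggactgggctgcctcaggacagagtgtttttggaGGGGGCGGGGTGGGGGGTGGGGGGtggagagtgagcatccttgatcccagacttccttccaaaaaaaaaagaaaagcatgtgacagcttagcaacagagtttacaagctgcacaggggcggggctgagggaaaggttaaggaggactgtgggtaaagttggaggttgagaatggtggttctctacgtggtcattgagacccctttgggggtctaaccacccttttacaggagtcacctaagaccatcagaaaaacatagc

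Site at the start of Dyrk2, lower in Rif1KO_shLacZ, chr10:118306157-118306456: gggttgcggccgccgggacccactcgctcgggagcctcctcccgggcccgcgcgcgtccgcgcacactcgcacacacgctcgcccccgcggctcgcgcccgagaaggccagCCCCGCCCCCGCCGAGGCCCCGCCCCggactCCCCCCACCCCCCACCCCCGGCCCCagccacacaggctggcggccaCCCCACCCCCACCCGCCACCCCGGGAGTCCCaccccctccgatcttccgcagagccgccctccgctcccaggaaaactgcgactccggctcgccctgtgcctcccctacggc

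Chromosome 7 repeat, higher in Rif1KO_shLacZ, chr7:134234389-134234688: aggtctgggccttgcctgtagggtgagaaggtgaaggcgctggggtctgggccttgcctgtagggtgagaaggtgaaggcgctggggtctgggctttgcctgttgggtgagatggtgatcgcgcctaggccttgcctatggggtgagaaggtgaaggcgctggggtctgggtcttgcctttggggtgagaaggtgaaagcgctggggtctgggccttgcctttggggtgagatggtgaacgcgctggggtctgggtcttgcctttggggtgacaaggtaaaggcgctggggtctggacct

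Chromosome 9 repeat, lower in Rif1KO_shLacZ, chr9:64604649-64604948: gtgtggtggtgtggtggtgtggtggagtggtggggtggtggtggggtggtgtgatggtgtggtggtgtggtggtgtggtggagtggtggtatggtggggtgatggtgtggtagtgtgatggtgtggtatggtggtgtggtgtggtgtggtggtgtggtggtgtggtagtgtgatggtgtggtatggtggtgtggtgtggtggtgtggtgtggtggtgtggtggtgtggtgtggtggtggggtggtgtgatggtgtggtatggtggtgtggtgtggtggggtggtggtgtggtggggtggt

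The chromosome 5 stretch overlaps no annotated gene. The chromosome 7 and chromosome 9 repeats hold no match to the motif in these stretches. In the chromosome 5 stretch the motif starts close to the left end, and the WT centre lay 112 bp and the Rif1KO_shLacZ centre 202.5 bp to its right. The Rif1KO_shLacZ IS reached 194 bp beyond the WT IS on the side away from the motif, and 13 bp beyond it on the motif side.

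The Rif1KO_shLacZ list was longer and its ISs were wider. On the autosomes it held 98867 ISs against 25725 in WT, or 3.84 for each WT IS, and they covered 55.9 Mb against 11.6 Mb. The median width was 530.0 bp against 418 bp. The median gap between neighbouring ISs was 8.10 kb against 24.0 kb. The separate peak calls of the replicates differed in the same way, since the highest peak numbers in the names were 46818 and 46482 for the WT replicates and 148713 and 153248 for the Rif1KO_shLacZ replicates. The part of sequencing depth in these numbers was not tested.

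The excess of ISs was largest in AT-rich, gene-poor sequence. Where GC content of the central 300 bp was below 40%, the Rif1KO_shLacZ list held 7.67 ISs for each WT IS, and at 55% or more it held 1.55. With no protein-coding gene within 500 kb the ratio was 6.88, and with 18 or more such genes it was 2.75. At promoters, within 1 kb of the start of a protein-coding transcript, 4152 ISs stood against 1992 in WT, a ratio of 2.08. Outside genes and promoters 61600 stood against 14049, a ratio of 4.38. Promoter ISs therefore made up 4.20% (95% Wilson interval 4.08 to 4.33) of the Rif1KO_shLacZ list and 7.74% (7.42 to 8.08) of the WT list. Among the autosomes the ratio ran from 2.13 on chromosome 10 to 5.32 on chromosome 12.

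Most WT ISs were found again in Rif1KO_shLacZ cells. Of the 25725 WT ISs, 20126 or 78.2% (77.7 to 78.7) overlapped an IS of the Rif1KO_shLacZ list by at least 1 bp. The share went from 75% in the lowest to 80.4% in the highest of 5 classes of WT read density. It was 72.5% for promoter ISs and 79.6% for intergenic ISs. Of the Rif1KO_shLacZ ISs, 19915 or 20.1% (19.9 to 20.4) overlapped a WT IS. This share moved more with read density and was 2.66% in the lowest and 51.5% in the highest class. It was 36.1% at promoters and 17.9% between genes, and it rose from 9.67% in the AT-richest to 31.4% in the GC-richest of 5 classes.

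**Figure D1:**
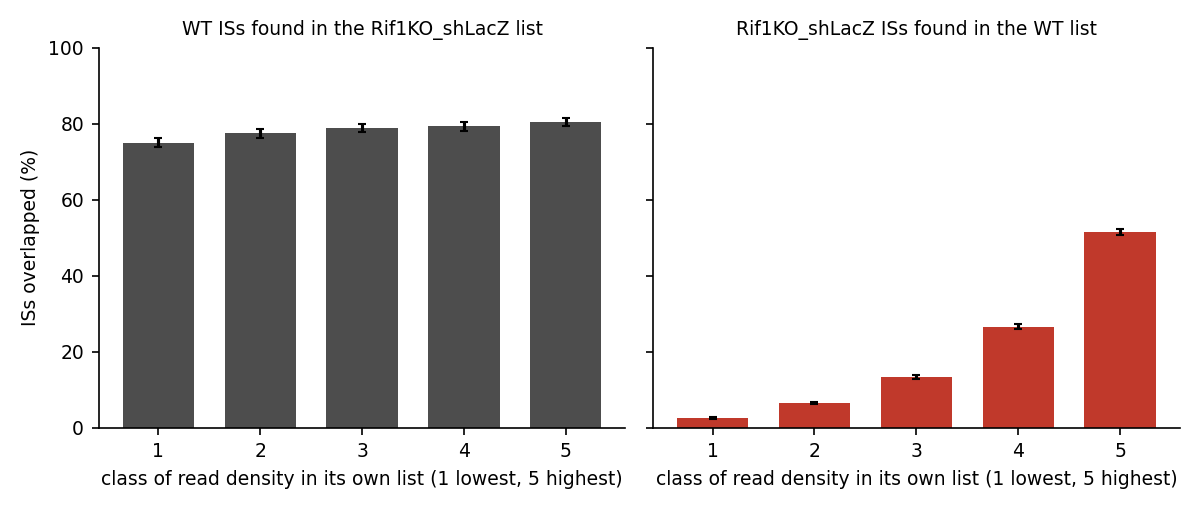
Share of ISs of each list (y axis, %) that overlapped an IS of the other list by at least 1 bp, in 5 equal-sized classes of read density in the IS's own condition (x axis), with bars for the share and black lines for 95% Wilson intervals. WT ISs were found at 75% to 80.4% in every class, and Rif1KO_shLacZ ISs from 2.66% to 51.5%.

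The share of ISs with a G4 motif depended on the distance from the centre. Within 1000 bp around the centre, 84.2% of WT ISs and 85.2% of Rif1KO_shLacZ ISs held a motif, against 15.8% of all autosomal 1000 bp windows. Within 500 bp the shares were 77.7% and 56.8%, against 8.21% of all such windows. Within the central 300 bp the shares were 55.6% (55 to 56.2) in WT and 22.5% (22.2 to 22.7) in Rif1KO_shLacZ, against 4.95% of all such windows. Read 5' to 3' along the G-rich strand, motifs lay upstream of the centre in both lists, with 82.9% of the motifs within 500 bp upstream in WT and 91.2% in Rif1KO_shLacZ. They were densest 150 to 100 bp upstream of WT centres, with 36.1 motifs per 100 ISs in 50 bp. Around Rif1KO_shLacZ centres they were densest 250 to 200 bp upstream, with 26.9 per 100 ISs. Rif1KO_shMcm6 centres had their highest value in that same bin (23.1 per 100 ISs), with a motif in 19.1% of the central 300 bp stretches.

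**Figure D2:**
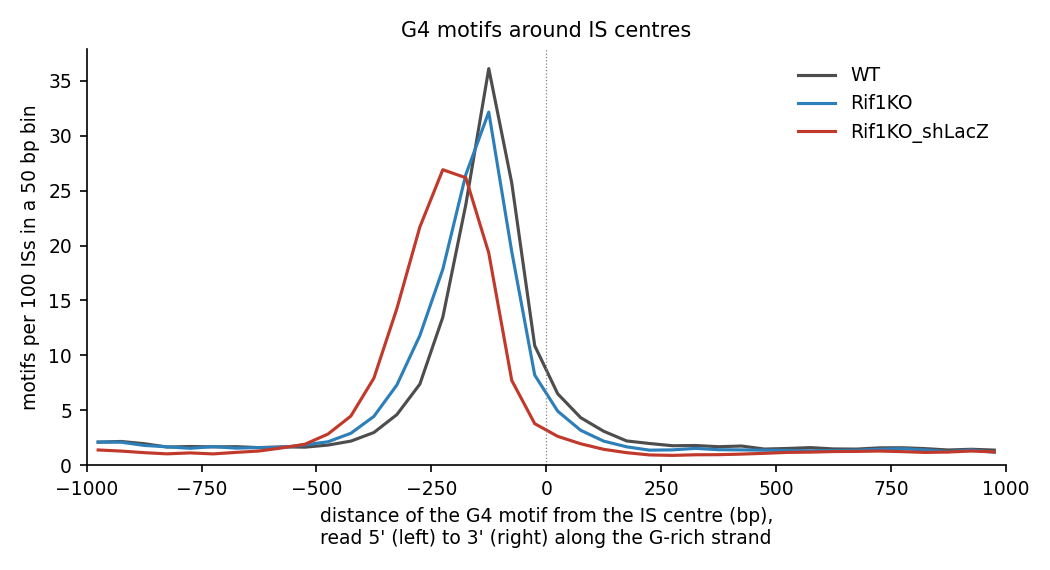
G4 motifs per 100 ISs in 50 bp bins (y axis) by the distance of the motif from the IS centre (x axis, bp, 5' to 3' along the G-rich strand) for the WT, Rif1KO and Rif1KO_shLacZ lists on the autosomes. The Rif1KO_shLacZ curve peaks at -250 to -200 bp, the WT and Rif1KO curves at -150 to -100 bp.

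The same shift was present at ISs called in both conditions. Of 19675 pairs that overlapped 1 to 1 between the lists, 15504 had motifs on only 1 strand within 500 bp. At these the Rif1KO_shLacZ centre lay 3' of the WT centre by a median of 90.5 bp (quartiles 38 and 152.5), and in 88.3% (87.8 to 88.8) of pairs it lay to that side. The pairs with the G-rich strand on + (n = 7801) and on - (n = 7703) gave 91 bp and 90.5 bp. The 2912 pairs without a motif gave a median of -2.5 bp along the + strand, and all 19675 pairs read along that strand gave 0.5 bp. Pairs without a motif have no G-rich strand, so their signed median cannot show whether they shift. At the pairs with motifs on 1 strand the added width sat mostly on 1 side. Along the G-rich strand, the 3' edge of the Rif1KO_shLacZ IS lay 194 bp beyond the WT edge in the median, and the 5' edge only 10 bp beyond it (median of -10). Read along the + strand, pairs without a motif widened by 56 bp and 52 bp on the 2 sides. The edges of all 19675 pairs, most with motifs on 1 strand, moved by -65 bp and 66 bp in that reading. It therefore cannot show whether pairs without a motif widened on 1 side.

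The offset differed little with WT read density, from 85 bp in the lowest to 87 bp in the highest class, with 94 bp as the largest of the 5 medians. By chromosome it ran from 68.5 bp on chromosome 10 to 101 bp on chromosome 16. Among the 1625 pairs whose widths differed by at most 50 bp, it was 24.5 bp. In Rif1KO cells, which have the knockout without the hairpin, the offset from WT ISs was 14.5 bp over 15878 pairs with motifs on 1 strand, and the 3' edge lay 23.5 bp beyond the WT edge. The Rif1KO and Rif1KO_shLacZ values share the WT list but not the set of pairs. The number of reads and the width of the ISs differed along with the offset, and their part in it was not tested.

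Read densities at the 31462 sites were compared next. The centred density differed by a median of 0.53 (log2), higher in Rif1KO_shLacZ, because the shared sites lay above the median of the longer Rif1KO_shLacZ table. On this scale 45.7% of sites were at least 1.5-fold higher and 2.03% at least 1.5-fold lower. Differences are therefore given below relative to that median of 0.53. Relative to it, 11.7% of sites (3679) were at least 1.5-fold higher and 11.1% (3495) at least 1.5-fold lower in Rif1KO_shLacZ. The SD of the difference over sites was 0.51, and the counting error of a site had a median of 0.196 (log2), from a median of 74 WT and 218 Rif1KO_shLacZ reads. The difference between 2 such libraries of 1 condition was not measured.

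Across the sites the centred densities of WT and Rif1KO_shLacZ had a Pearson r of 0.613 (Spearman rho 0.574, n = 31462), and those of WT and Rif1KO, which share a table and its ISs, had an r of 0.886. The sites of a library share its depth, and the values are descriptions. The difference followed the width of the IS. The median width was 448 bp in the WT table and 735 bp in the Rif1KO_shLacZ table, and the density difference had a rho of 0.725 with the log2 ratio of the widths. Given per kb of IS, the differences were smaller, with 4.79% of sites at least 1.5-fold higher and 4.87% at least 1.5-fold lower. The per kb difference had a rho of -0.273 with the width ratio, so it still moved with width, in the opposite direction. Values below are differences in read density of the IS unless given as per kb.

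**Figure D3:**
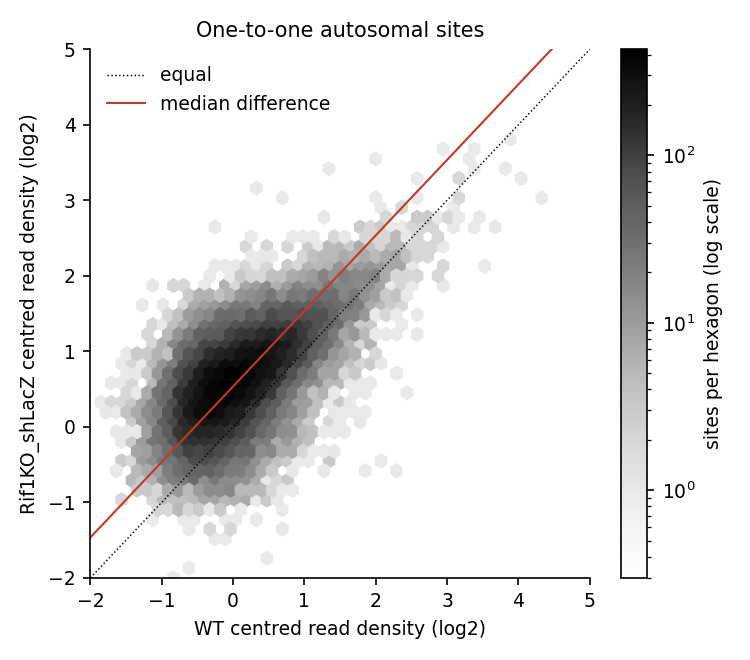
Centred read density (log2) of the 31462 one-to-one sites in Rif1KO_shLacZ (y axis) against WT (x axis), as counts of sites per hexagon on a log grey scale. The dotted line marks equal centred density and the red line the median difference of 0.53. Most sites lie above the dotted line (lower quartile of the difference 0.22).

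Stretches of chromosomes 10, 12 and 15 stood apart from the rest. Among 254 windows of 10 Mb with at least 10 sites, 240 had a median relative difference within 0.25 (log2) of 0. Of the others, 9 lay lower and 5 higher in Rif1KO_shLacZ. These 14 windows held 7.55% of the sites. Of their sites 43.2% were past 1.5-fold in either direction, against 21.1% elsewhere. The windows were picked by these same differences, so a higher share inside them follows from the choice.

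Distal chromosome 10 held the lowest differences from WT. From 0 to 50 Mb the median was 0.00 (n = 458 sites). From 60 to 110 Mb it was -0.48 (-0.51 to -0.45, binomial interval of the median over 1059 sites), or 0.718 times the level of all sites. From 110 to 130 Mb it was -1.16 (-1.23 to -1.10, n = 240), or 0.447 times. In that last stretch 222 of 240 sites (92.5%) were at least 1.5-fold lower and 0 at least 1.5-fold higher, beside 11.1% and 11.7% of all sites. The IS lists showed it too. The 110 to 130 Mb stretch had 525 WT ISs and 303 Rif1KO_shLacZ ISs, a ratio of 0.577 where all autosomes gave 3.84, and 37.5% (33.5 to 41.7) of its WT ISs were found in the other list. Per kb the medians were -0.35 and -0.60. At the same sites Rif1KO lay below WT by -0.46 in both stretches, so the Rif1KO_shLacZ value was near it from 60 to 110 Mb and lower from 110 to 130 Mb.

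Distal chromosome 12 was higher. From 90 to 120 Mb 35.7% of sites were at least 1.5-fold higher and 3.54% lower, beside 11.7% and 11.1% of all sites. The median was 0.43 (0.37 to 0.50, n = 395 sites), and per kb it was 0.24. It was 0.30 over the 263 sites called in both lists (all such sites, -0.10) and 0.05 over the 101 with at least 100 reads in both conditions (all such sites, -0.29). The Rif1KO value at these sites was -0.02, and from 0 to 90 Mb the Rif1KO_shLacZ median was 0.04 (n = 793). On chromosome 15, the 40 to 50 Mb window had a median of 0.32 (0.27 to 0.35, n = 316), the next 5 Mb had 0.42 (0.33 to 0.49, n = 156) and the end from 100 Mb on had 0.47 (0.42 to 0.61, n = 146). Per kb these were 0.36, 0.42 and 0.43, and Rif1KO gave 0.44, 0.49 and 0.49 there. Over sites called in both lists they were 0.16, 0.22 and 0.31, and with at least 100 reads 0.04, 0.09 and 0.23. From 55 to 100 Mb the median was -0.02 (n = 1011).

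Cells with the knockout and a hairpin against Mcm6 (Rif1KO_shMcm6), whose values come from the same table as those of Rif1KO_shLacZ and were set against the same WT values, gave 0.44 from 90 to 120 Mb of chromosome 12 and -1.22 from 110 to 130 Mb of chromosome 10. They gave 0.42, 0.46 and 0.45 in the 3 stretches of chromosome 15.

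The 1735 sites of chromosome 16 had a median of 0.04 (0.01 to 0.06) in Rif1KO_shLacZ, 0.31 in Rif1KO and 0.05 in Rif1KO_shMcm6, each against WT. Per kb the Rif1KO_shLacZ value was 0.13. Single windows were low on chromosome 7 (50 to 60 Mb, -0.43, n = 102) and chromosome 11 (40 to 50 Mb, -0.28, n = 118), with -0.16 and -0.07 per kb. The study called peaks without an input library, and no genomic DNA library was used here, so the DNA content of these stretches was not measured.

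**Figure D4:**
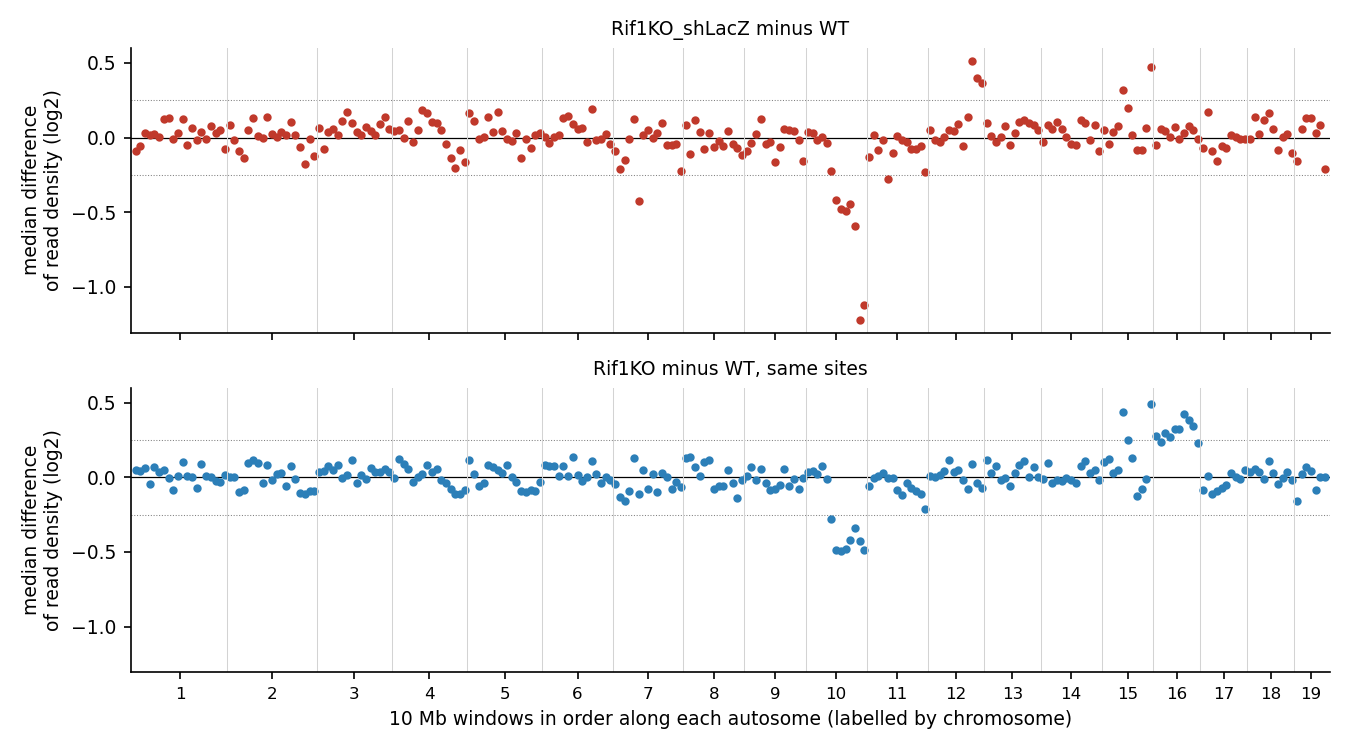
Median difference of read density from WT (log2, relative to the median of all sites) in 10 Mb windows with at least 10 sites, in order along each autosome, for Rif1KO_shLacZ (top) and Rif1KO (bottom) at the same sites. Dotted lines mark 0.25 in either direction. Both show distal chromosome 10 low and parts of chromosome 15 high, the top panel also has chromosome 12 high and the end of chromosome 10 near -1.16, and chromosome 16 is high in the bottom panel.

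Promoter sites had the highest centred density of the 3 positions in both conditions, with medians of 0.45 in WT and 0.80 in Rif1KO_shLacZ (intergenic -0.04 and 0.58), but the smallest difference between the conditions. Relative to all sites, the difference at the 1848 promoter sites had a median of -0.24 (-0.27 to -0.21). Of them 26.2% were at least 1.5-fold lower and 7.52% higher, beside 11.1% and 11.7% of all sites. The 11035 sites inside genes had a median of -0.01 and the 18579 intergenic sites 0.03 (0.02 to 0.03). Inside genes, sites that touched an exon gave -0.11 (n = 1508, -0.04 per kb) and intronic sites 0.00 (n = 9527). Per kb the promoter median was -0.12 and the intergenic one 0.02. Rif1KO gave -0.15 at the promoter sites. In the GC-richest of 5 classes the promoter median was -0.35 (n = 1252) and the intergenic one 0.01 (n = 2519), and per kb they were -0.15 and -0.04. In the AT-richest class the 65 promoter sites gave 0.13 (-0.01 to 0.30), and 0.04 per kb.

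GC content and gene number showed weaker gradients. From the AT-richest to the GC-richest class of sites the median fell from 0.08 to -0.08, and per kb from 0.06 to -0.07 (rho -0.108 and -0.138, n = 31462). Rif1KO went from 0.12 to -0.12 at the same sites. From the fewest to the most protein-coding genes within 500 kb the median fell from 0.07 to -0.08, and per kb from 0.05 to -0.04. Sites were also sorted by density in Rif1KO. That density was counted over the same intervals as WT, so it is not independent of the difference. The median fell from 0.21 in the weakest class to -0.25 in the strongest, but per kb it went from -0.08 to 0.03. Median WT width rose from 330 bp to 665 bp between these classes.

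**Figure D5:**
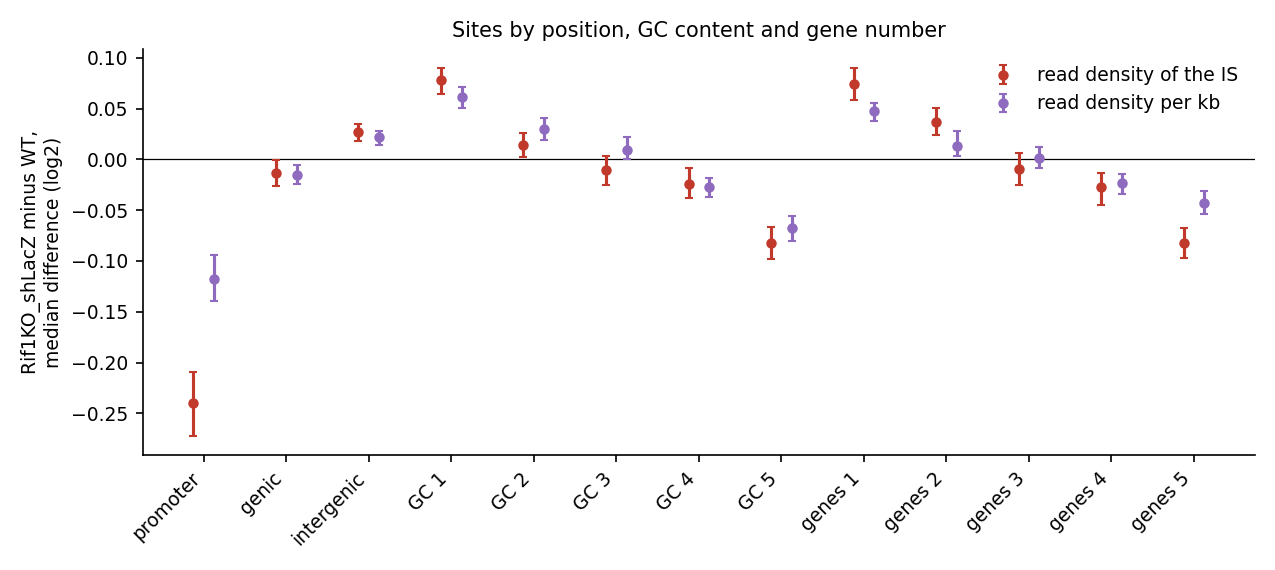
Median difference between Rif1KO_shLacZ and WT (log2, relative to all sites) for sites by position, in 5 classes of GC content (1 lowest) and 5 of the number of protein-coding genes within 500 kb (1 fewest), as read density of the IS (red) and per kb of IS (violet), with binomial 95% intervals of the median over sites. Promoter sites are the lowest group on both scales, at -0.24 and -0.12.

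Sites in tandem repeats made up a larger share of the low sites than of all sites. A central 300 bp stretch was counted as a repeat when at least 70% of its bases equalled those 10 to 100 bp further on for some shift. Of all sites 550 (1.75%) passed, of those at least 1.5-fold lower 5.92% (5.19 to 6.75, 207 of 3495), and of those at least 1.5-fold higher 1.36% (1.03 to 1.79, 50 of 3679). At 2-fold the shares were 10.4% (8.64 to 12.6) of lower and 2.42% (1.59 to 3.67) of higher sites. Per kb, repeats were 5.29% (4.28 to 6.53) of the sites at least 1.5-fold lower and 2.72% (2.01 to 3.67) of those at least 1.5-fold higher, so both shares lay above that of all sites. The median relative difference of the repeat sites was -0.39, and per kb -0.12. The chromosome 7 and chromosome 9 repeats printed above matched themselves at 83.3% and 78.2% of bases, at shifts of 42 bp and 16 bp. Reads had been kept only where they aligned uniquely, and the part of this in the repeat sites was not tested.

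Single sites were named from the 15738 sites whose centred densities averaged no lower than the median site, with at most 2 per chromosome. The highest lay on chromosome 13 (71159211 to 71159594 of mm9, between genes), where 62 WT reads gave a centred density of -0.24 and 918 Rif1KO_shLacZ reads gave 2.69, a relative difference of 2.39 (counting error 0.19). An intronic site of Epb4.1l2, a membrane skeleton protein gene (chromosome 10, 25195424 to 25196019), had 95 and 1276 reads and a relative difference of 2.25 (0.15). The per kb values of the 6 highest sites rest on the same reads and were 0.46 to 1.17. Rif1KO gave between -0.13 and 0.58 at these sites. The merged intervals at them were 1334 to 2128 bp wide in the Rif1KO_shLacZ table and 284 to 596 bp in the WT table. The Rif1KO_shLacZ list held all 6 and the WT list only the chromosome 13 site at the head of the order and that of Epb4.1l2. The sites were picked by the difference between these reads, so the calls are not a separate result. Those with a low WT density entered the pool through their Rif1KO_shLacZ density. The central stretch of the chromosome 13 site at the head of the order matched itself at 63.2% of bases, at a shift of 61 bp. That of the Epb4.1l2 site matched itself at 64.3% of bases, at a shift of 34 bp. Runs of bases recur in both stretches, but both lay below the limit for repeats and were not counted as such.

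The lowest site lay at the start of the assembled chromosome 9 (3035582 to 3036656, over the predicted gene Gm17535), with 375 WT and 95 Rif1KO_shLacZ reads and a relative difference of -3.48 (counting error 0.17), and -1.63 per kb. At shifts of up to 100 bp it matched itself at 51.2% of bases at most, so it was not counted as a repeat. A run of bases near the start of its central 300 bp recurs at their end, a longer spacing than the rule examined. This site was followed by a site on chromosome 11 at -3.03 and one on chromosome 3 at -3.00. Their merged intervals were 381 bp and 463 bp wide in the Rif1KO_shLacZ table against 1491 bp and 1310 bp in the WT table. The chromosome 11 site was called in the WT list and not in the Rif1KO_shLacZ list, and the chromosome 3 site the other way round. Per kb these came to -0.39 and -0.83. The Dyrk2 promoter (a protein kinase gene, chromosome 10, 118305854 to 118306758, inside the distal stretch) had 406 and 202 reads, with centred densities of 2.48 and 0.51 and a relative difference of -2.50 (0.12), and stayed at -1.73 per kb. An intronic site of Cnnm4, a metal transporter gene, had 191 and 100 reads and -2.43 (0.18), and -1.44 per kb. At the 6 lowest sites Rif1KO differed from WT by -0.10 to -0.50.

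Among promoter sites the 6 highest ran from 1.5 to 2.15. They lay at AI467606, Gabra4 (a GABA receptor subunit), Degs2 (a sphingolipid enzyme), Rarg (a retinoic acid receptor), Hhip (a hedgehog-binding protein) and Tgfb1i1 (a focal adhesion adaptor). Per kb they came to 0.02 to 0.54. WT called an IS at 1 of the 6, that of Degs2, and Rif1KO_shLacZ at all 6. These promoters were picked by the difference between the same reads, so the calls are not a separate result. After the sites already named, the lowest promoters were those of Zfp423, a zinc finger transcription factor (173 and 98 reads, -2.31, and -0.75 per kb), Mbd6, a methyl-CpG-binding domain protein on distal chromosome 10 (189 and 110 reads, -2.28, and -1.07 per kb), and Brpf3, a subunit of histone acetyltransferase complexes (159 and 115 reads, -1.96). Brpf3 came to -0.26 per kb, it was not called in the Rif1KO_shLacZ list, and the intervals of both tables overlapped only at an edge.

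ISs in genes of B cells and of replication were counted next. Of all 21281 autosomal protein-coding genes, 28.6% had a WT IS in the gene or the 5 kb before it and 48.7% a Rif1KO_shLacZ IS, with 3.14 Rif1KO_shLacZ ISs for each WT IS. Of 21 B cell transcription factor genes 11 had a WT IS and 14 a Rif1KO_shLacZ IS, with 25 and 63 ISs in all. Their 22 one-to-one sites had a median of 0.01, with 2 at least 1.5-fold higher and 4 lower, beside 11.7% and 11.1% of all sites. Ebf1, which specifies B cells, had 6 and 12 ISs and a median of 0.01 over 5 sites (-0.23 per kb). Ikzf1 (Ikaros) had 2 WT ISs and 0 Rif1KO_shLacZ ISs. Bach2 had 0 WT ISs and 8 Rif1KO_shLacZ ISs. Tcf3, which encodes E proteins and lies in the 60 to 110 Mb stretch of chromosome 10, had 2 and 2 ISs and a median of -0.65 (-0.26 per kb).

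Of 16 genes of the B cell receptor and of loci known to mutate in activated B cells, 7 (43.8%) had a WT IS and 13 (81.2%) a Rif1KO_shLacZ IS, beside 28.6% and 48.7% of all genes. Their 19 sites had a median of 0.03 on both scales, with 0 at least 1.5-fold higher and 1 lower, beside 11.7% and 11.1% of all sites. The lower one was a site of Myc, a proto-oncogene, at -1.94, and its other site gave -0.21. The median of the 2 Myc sites was -1.08, and per kb -0.07. Rhoh, a small GTPase gene, had 4 and 5 ISs and a median of 0.44 (-0.06 per kb).

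Replication initiation genes held few ISs in either condition. Of 25 such genes 4 (16%) had a WT IS and 6 (24%) a Rif1KO_shLacZ IS, beside 28.6% and 48.7% of all genes. Their 5 sites had a median of -0.31, and per kb the sign turned to 0.06. The 1 site lower past 1.5-fold (11.1% of all sites) was in Gins2 (a subunit of the GINS complex of the helicase, -0.80, and 0.06 per kb). None of the 6 annotated Mcm2 to Mcm7 genes had an IS in either list. Of RIF1 and 5 partners, 4 had a WT IS and 5 a Rif1KO_shLacZ IS, with 7 and 19 ISs. Rif1 itself had 2 and 4 ISs, and its 1 site gave 0.43 (-0.10 per kb).

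Large genes linked to fragile sites gained the most ISs of the 10 lists. The 18 annotated members held 99 WT ISs and 777 Rif1KO_shLacZ ISs, a ratio of 7.85. All 18 had a Rif1KO_shLacZ IS and 15 a WT IS. Their sites had a median of 1 protein-coding gene within 500 kb, a setting in which all ISs gave a ratio of 5.90 (1 or 2 genes). Cntnap2, a neuronal adhesion gene, had 0 and 82 ISs, Csmd3 had 14 and 96, Dlg2 had 9 and 98, and Wwox had 20 and 52. At their 181 one-to-one sites the median was 0.17 (0.11 to 0.27), with 28 (15.5%) at least 1.5-fold higher and 11 (6.08%) lower, beside 11.7% and 11.1% of all sites, and per kb it was 0.04. Of those sites 47 belonged to Csmd3, which lies in the raised window of chromosome 15.

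In the families, ribosomal protein genes had ISs in 11 of 85 (12.9%) in WT and 28 of 85 (32.9%) in Rif1KO_shLacZ, beside 28.6% and 48.7% of all genes. Their 17 sites had a median of -0.34 (-0.65 to 0.20), with 2 higher and 7 lower past 1.5-fold (all sites 11.7% and 11.1%), and -0.23 per kb. Olfactory and vomeronasal receptor genes had ISs in 3.14% of 1432 genes in WT and 15.4% in Rif1KO_shLacZ, with 51 and 297 ISs and a median of -0.02 over 71 sites. Zfp genes had 125 and 374 ISs and a median of -0.03 over 123 sites. Hox genes had 26 and 57 ISs and a median of 0.03 over 25 sites, with 5 (20%) higher and 1 (4%) lower. The replication-dependent histone genes had ISs in 2 of 67 genes in WT and in 8 in Rif1KO_shLacZ, with 2 sites.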

How the data were processed

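SNS-seq libraries of WT and Rif1KO_shLacZ CH12 cells (2 each) were grouped by the labels. Per the study's methods, the authors trimmed reads with Trim Galore 0.6.4, aligned them to mm9 with Bowtie 1.2.3 keeping unique alignments, called peaks per replicate without an input library, took peaks shared by the replicates, and kept those inside clusters of peaks. Peak sets of a contrast were then merged. Replicates came from separately thawed vials, and how they were pooled is not given in the sources used here. The deposited values are log2 RPM, 1 per condition, scaled by the authors to 1000000 reads inside the ISs of each table. Other deposited columns hold the number of merged peaks and the authors' class of fold change, and the latter was not used. On the linear scale 100% of the values were whole multiples of 1 read (tolerance 0.001), so reads per IS were recovered. The fewest reads at an IS were 21 for WT and 11 for Rif1KO_shLacZ.

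Overlaps of at least 1 bp, medians and shares were computed in Python 3.11.15 with numpy 2.4.6, pandas 2.3.3 and scipy 1.17.1, and checked on simulated data. Genes came from GENCODE vM1 on NCBIM37, the same assembly as mm9, and 0 ISs ended beyond their chromosome. G4 motifs were matched along whole chromosomes without overlap, except that capitals mark matches within the printed stretch. Wilson intervals (95%) on shares and counting errors cover counting only, since reads include PCR copies, and intervals of medians treat sites as independent, which neighbouring sites are not. Named sites were the 6 highest and 6 lowest of all sites and of promoter sites by the rule in the text. The members, gene lists and rules were chosen with earlier results of these data known, and the stretches of chromosomes, the motif positions and the repeats were examined after the values were seen. Alternatives covered overlap rules, centring, width, filters, thresholds, the pseudocount and the promoter distance. Apart from the genes and sequences given in the text, 1 gene of the lists and 1 further IS sequence are not reported here.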

Additional observations from a re-analysis of the deposited data

How the results depend on the processing

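No paired analysis was possible because each condition has 1 value pooled over its replicates, and for the same reason no replicate could be left out. Of 63 alternative values of 11 results, 21 moved by less than the interval of the result, 41 moved by more and 1 changed sign. The cause was not tested where the construction of the alternative does not show it.

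With an overlap of at least 50% of both ISs, 61.1% of WT ISs and 15.9% of Rif1KO_shLacZ ISs were found. With centres within 500 bp 77.7% of WT ISs were found, and over all chromosomes 19.9% of Rif1KO_shLacZ ISs. The shares of sites past 1.5-fold rest on the centring. Higher and lower shares were 0.0890% and 87.9% with no centring, 9.50% and 13.7% centred on the one-to-one sites, and 11.7% and 11.1% relative to their median difference. They were 17.8% and 1.16% per kb, 40.3% and 1.83% with log2(RPM + 1), 36.7% and 2.37% for sites called in both conditions, 32.1% and 2.58% at 50% overlap, and 41.3% and 2.29% with at least 50 reads. At 2-fold they were 16.9% and 0.461%, at the lowest threshold tried 67.7% and 4.55%. Without the weakest sites (the lowest quartile of density) the lower share was 1.67%. Values relative to the median were 4.79% and 4.87% per kb, and 11.6% and 9.53% outside the shifted windows.

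Per kb, the chromosome medians were -0.30 (10), 0.0924 (12) and 0.13 (16). For sites called in both conditions they were 0.0665 (15) and -0.0196 (16), the change of sign. Promoter minus intergenic sites gave -0.14 per kb and -0.34 with promoters within 500 bp. The lowest minus the highest GC class gave 0.13 per kb, 0.0768 for sites called in both conditions and 0.14 with chromosome medians removed, and gene number 0.0906, 0.11 and 0.12. Alternatives relative to the median of the sites, outside the shifted windows, and for promoters with chromosome medians removed were chosen after seeing the data, as were the stretches recomputed over sites called in both lists or with at least 100 reads, the repeats per kb and at 2-fold, and 5 Mb windows, of which 22 of 488 lay below -0.25 and 12 above 0.25.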
